A study of Mus musculus with 14 samples.

Results

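The genes described here are those of core binding factor and of the corepressors that work with it, in the blood of mouse embryos at E12.5. They are Cbfb, Runx1, Runx2, Runx3, Myh11, Runx1t1, Cbfa2t2, Cbfa2t3, Tle1 and Tle3, chosen by name and not by any measured value. Every probe set whose platform symbol is one of these names was taken, which gave 30 of the 45037 probe sets tested and 9 of the 10 genes. No probe set used here carried the name Runx2, so its level was not analysed here. The number of probe sets was 1 for Cbfb, 6 each for Runx1 and Runx1t1, 4 each for Cbfa2t3 and Tle3, 3 for Cbfa2t2, and 2 each for Runx3, Myh11 and Tle1.

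Total RNA of embryonic blood was measured on 14 Affymetrix arrays. The first cross mated Cbfb-MYH11 chimeras with C57/Bl6 mice and gave Cbfb+/MYH11 embryos, which carry the fusion on 1 Cbfb allele (4 arrays), and their WT littermates (4 arrays). The second cross mated Cbfb+/- mice with each other and produced Cbfb-/- embryos (3 arrays) with Cbfb+/+ littermates (3 arrays). All groups were pools of blood from 8 to 10 embryos of 1 genotype, with 5 µg of RNA per labelling. Each title has the words technical replicate, so a p-value here reflects how far arrays of a group differ and need not reflect how far embryos differ. With so few arrays the precision is limited. The labels do not describe the structure of the altered Cbfb alleles, the part of Cbfb that the probe set reads, or the background strain of the second cross.

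Core binding factor is a pair of proteins. Runx1, Runx2 and Runx3 bind DNA, and Cbfb, which does not bind DNA itself, strengthens their binding. In blood formation Runx1 with Cbfb is needed for the definitive blood cells that follow the first, primitive red cells. The CBFB-MYH11 fusion of human acute myeloid leukaemia joins most of CBFB to the tail of smooth muscle myosin and interferes with RUNX1. Runx1t1 (ETO), Cbfa2t2 and Cbfa2t3 (ETO2) are related corepressors that bring histone deacetylases to DNA, and RUNX1T1 is the partner of RUNX1 in another leukaemia fusion. Tle1 and Tle3 are Groucho corepressors that bind the end of Runx proteins.

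The Runx genes are themselves reported targets of Runx proteins, so the windows around their start sites were read for the core letters TGNGGT. Windows ran from 250 bases before to 50 bases after each start, as RefSeq gives them on GRCm38.p6, and 8 of the 10 genes had an entry, with 11 windows in all. The core was searched on both strands and stood in 5 of the 11 windows, against 45.8% of all 32851 windows of the same length. The upstream starts of the 3 Runx genes are shown because each holds a pair of cores, and the upstream start of Cbfa2t3 because its RNA was called in opposite directions in the mutants. Sequences run 5′ to 3′ on the strand of the gene, and capitals mark the cores.
Runx1 upstream start, chr16:92826025-92826324, minus strand: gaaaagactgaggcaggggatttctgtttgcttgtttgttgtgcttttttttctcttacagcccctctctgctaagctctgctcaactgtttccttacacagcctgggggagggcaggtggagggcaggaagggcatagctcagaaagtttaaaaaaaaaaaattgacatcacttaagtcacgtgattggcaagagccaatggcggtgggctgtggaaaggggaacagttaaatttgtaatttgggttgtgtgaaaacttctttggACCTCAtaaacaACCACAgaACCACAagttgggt
Runx2 start, chr17:44814578-44814877, minus strand: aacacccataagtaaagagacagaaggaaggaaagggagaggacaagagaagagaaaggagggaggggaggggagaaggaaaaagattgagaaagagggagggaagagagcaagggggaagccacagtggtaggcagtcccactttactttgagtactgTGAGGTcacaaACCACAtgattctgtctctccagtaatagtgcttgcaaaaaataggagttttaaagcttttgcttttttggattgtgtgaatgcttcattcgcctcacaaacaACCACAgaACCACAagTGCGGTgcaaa
Runx3 upstream start, chr4:135120395-135120694, plus strand: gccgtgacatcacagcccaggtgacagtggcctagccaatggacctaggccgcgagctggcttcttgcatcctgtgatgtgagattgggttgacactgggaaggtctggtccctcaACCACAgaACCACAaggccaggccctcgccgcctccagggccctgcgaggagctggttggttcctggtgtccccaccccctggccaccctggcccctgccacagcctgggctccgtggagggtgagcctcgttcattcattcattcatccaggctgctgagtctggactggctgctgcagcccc
Cbfa2t3 upstream start, chr8:122699060-122699359, minus strand: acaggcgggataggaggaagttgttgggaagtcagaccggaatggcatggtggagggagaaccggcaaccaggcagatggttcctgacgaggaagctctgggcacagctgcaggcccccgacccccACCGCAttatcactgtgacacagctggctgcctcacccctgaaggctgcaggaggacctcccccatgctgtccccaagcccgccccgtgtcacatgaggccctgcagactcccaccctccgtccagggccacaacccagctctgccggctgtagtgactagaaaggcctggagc

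The windows of Runx1, Runx2 and Runx3 held 3, 5 and 2 cores. In each of them a pair of cores lay with 2 bases between, both read from the other strand, an arrangement of 2 TGNGGT cores found in 33 of the 32851 windows (0.10%). The pair and its flanks were the same in all 3 genes over 18 bases, caACCACAgaACCACAag, starting at base 277 of the Runx1 window, base 272 of the Runx2 window and base 115 of the Runx3 window. The Cbfa2t3 upstream window held 1 core at bases 127 to 132, followed directly by a match to NGATAA, the letters bound by Gata factors, at bases 133 to 138 on the other strand. This was the only match to NGATAA in the 11 windows, against 25.3% of all windows. The downstream start of Cbfa2t3 held 1 core, and the windows of Cbfb and of the downstream starts of Runx1 and Runx3 held 0. These matches describe letters and not binding.

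Values below are the deposited log2 values of each probe set, and 1 unit is a doubling of signal. A difference was called at an adjusted p under 0.05, from limma over all 45037 probe sets, together with a change of at least 1.5-fold. A log2 value of 6 was used as a mark of clear signal. Of the 30 probe sets 7 were at 6 or more on all arrays, 11 on some and 12 on none. Array medians lay between 4.27 and 4.46. The red cell list (6 of 7 genes measured) had summed linear signals from 72456 to 76314 in Cbfb+/MYH11, from 70498 to 71050 in WT, from 76557 to 76940 in Cbfb-/- and from 75632 to 76491 in Cbfb+/+ blood, and each of its genes reached 6.

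Cbfb, the non-DNA-binding subunit and the gene altered in both crosses, was read by 1 probe set (1460716_a_at). In Cbfb+/MYH11 blood its values on arrays 1 to 4 were 8.44, 8.56, 6.91 and 7.06, and in WT blood they were 6.62, 6.57, 8.31 and 8.14. Arrays 1 and 2 were high in Cbfb+/MYH11 and low in WT blood, arrays 3 and 4 were the reverse, and the groups overlapped. The group means were 7.74 ± 0.88 in Cbfb+/MYH11 and 7.41 ± 0.94 in WT blood (SD, n = 4 each), a difference of 0.33 (95% interval -0.57 to 1.23, limma adjusted p = 0.57).

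In Cbfb-/- blood Cbfb had values of 7.03, 6.80 and 6.98, against 6.52, 6.56 and 6.27 in Cbfb+/+ blood. All 3 Cbfb-/- values lay above all 3 Cbfb+/+ values, and the difference of 0.48 (-0.56 to 1.53) was under 1.5-fold and not called (limma adjusted p = 0.549). This interval and p use a spread shared with the first cross. The SDs were 0.88 and 0.94 in the first cross and 0.12 and 0.16 in the second, so the interval is wider than the arrays of the second cross alone would give. A signal at this probe set that is not lower in Cbfb-/- blood checks neither genotype label, because the labels do not place the probe set within the altered alleles. By group means the order was Cbfb+/MYH11, WT, Cbfb-/- and Cbfb+/+. The steps among the first 3 of these lay within the spread of the arrays of the first cross.

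**Figure D1:**
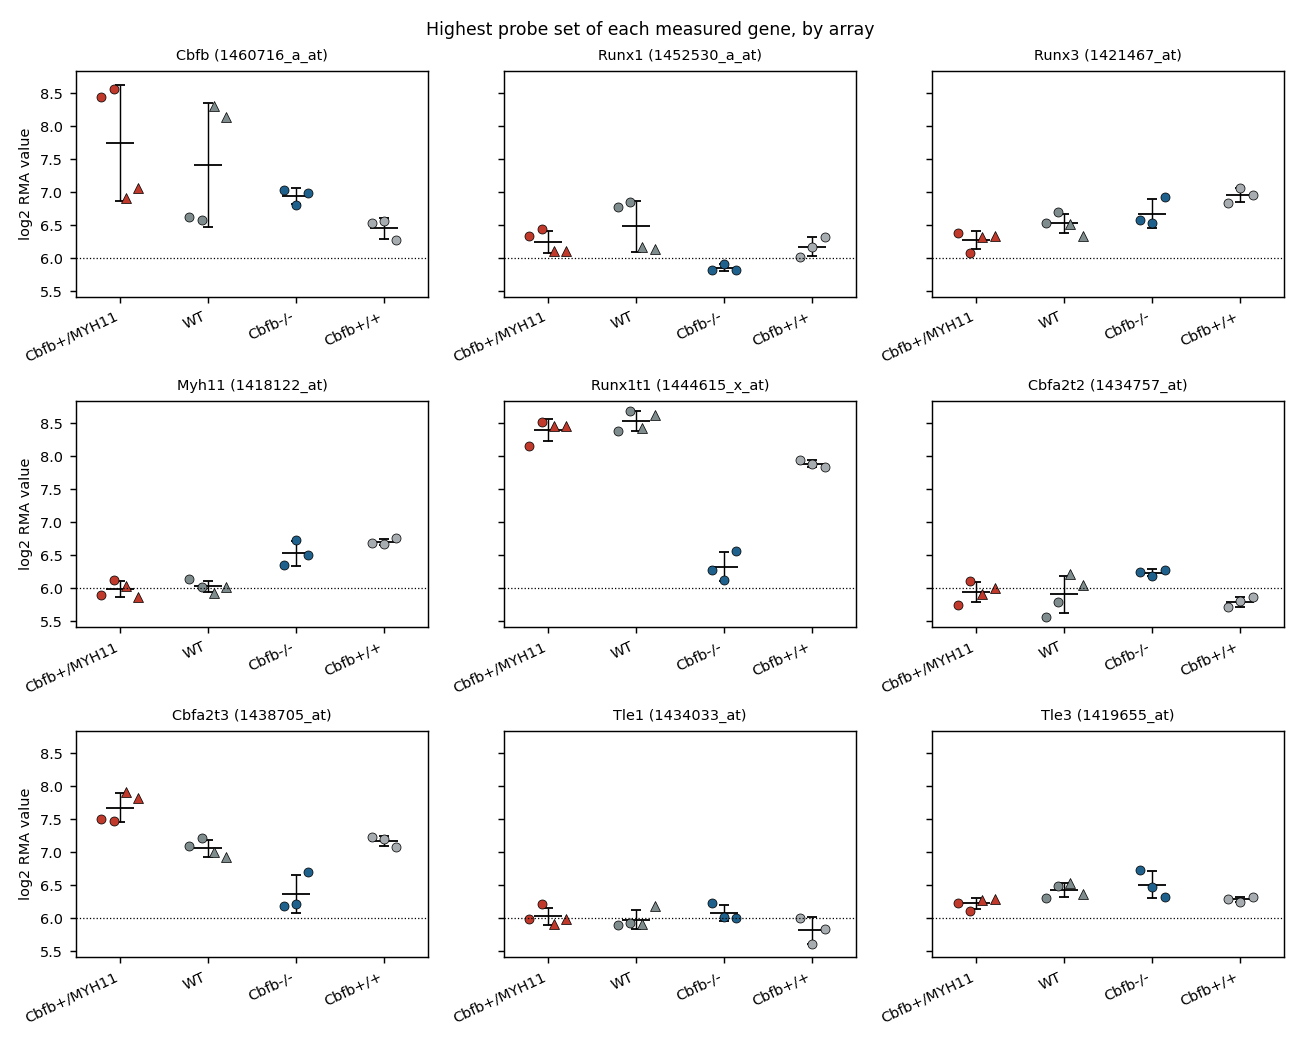
Log2 value of the probe set with the highest mean of each of 9 genes, by array (vertical axis) and group (horizontal axis); bars give the mean and SD, circles mark arrays 1 and 2 of the first cross and all arrays of the second, triangles mark arrays 3 and 4, and the dotted line is at 6. Cbfb splits by array pair in both groups of the first cross, and Runx1t1 is low on the 3 Cbfb-/- arrays (6.28, 6.13 and 6.56).

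The arrays of the first cross were therefore also compared within pairs. Over all probe sets, differences between the arrays of a pair had SDs of 0.151 to 0.304, and those between arrays of different pairs of 1 group 0.360 to 0.595. The labels do not say whether a pair is 1 pool measured again. If it is, each side of a within-pair comparison is a single pool, and its interval and p cover array error only, with no replicate pools behind them. Within arrays 1 and 2, Cbfb was higher in Cbfb+/MYH11 than in WT blood by 1.90, or 3.74-fold (3.08 to 4.55, limma adjusted p = 2.8e-08), and within arrays 3 and 4 it fell by 1.24 (-1.52 to -0.96, limma adjusted p = 6.3e-06). The change within arrays 1 and 2 minus that within arrays 3 and 4 was 3.14 (2.75 to 3.54, limma adjusted p = 1.1e-07). Setting Cbfb+/MYH11 arrays 1 and 2 against WT arrays 3 and 4 gave 0.28, and Cbfb+/MYH11 arrays 3 and 4 against WT arrays 1 and 2 gave 0.39. The 2 WT pairs differed by 1.63 (arrays 3 and 4 minus arrays 1 and 2), and the 2 Cbfb+/MYH11 pairs by 1.52 (arrays 1 and 2 minus arrays 3 and 4). The direction of the Cbfb difference thus depended on which arrays were set against each other.

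Markers of other cell types also split by array pair. The platelet list (7 of 8 genes measured) summed to 1986 and 2048 on Cbfb+/MYH11 arrays 1 and 2 and to 1543 and 1555 on arrays 3 and 4, against 4256 and 5063 on WT arrays 1 and 2 and 1767 and 1729 on WT arrays 3 and 4. Sums weigh bright genes most, and Tubb1 averaged 10.27 in Cbfb+/MYH11 and 9.80 in WT blood. By gene, the median platelet difference was -4.12 within arrays 1 and 2 and -1.85 within arrays 3 and 4. Within arrays 3 and 4, 5 of the 7 platelet genes were called lower and 1 higher. The macrophage list (8 of 8) summed to 594, 576, 732 and 726 on the Cbfb+/MYH11 arrays, against 2320, 2522, 568 and 555 on the WT arrays, and Cd68 stayed below 6 everywhere. By gene, the median macrophage difference of Cbfb+/MYH11 from WT blood was -2.79 within arrays 1 and 2 and -1.26 within arrays 3 and 4. Within arrays 3 and 4, 5 of the 8 macrophage genes were called lower and 1 higher, although the sums were higher. The smooth muscle list (7 of 7) summed to 360, 382, 528 and 522 on the Cbfb+/MYH11 arrays, against 558, 456, 1827 and 1762 on the WT arrays. Its genes Actg2, Cnn1 and Lmod1 stayed below 6 on every array. The liver or visceral endoderm list (4 of 4) split more widely than those lists, with 240, 213, 906 and 929 on the Cbfb+/MYH11 arrays, against 4843, 4706, 275 and 285 on the WT arrays. Its median difference of Cbfb+/MYH11 from WT blood was -2.57 within arrays 1 and 2 and 1.65 within arrays 3 and 4, so it turned sign between the pairs as Cbfb did, in the opposite sense. The mesenchyme list (5 of 5) summed to 564, 515, 1238 and 1267 on the Cbfb+/MYH11 arrays, against 536, 628, 2737 and 2527 on the WT arrays. The neural list (5 of 5) summed to 379, 362, 1006 and 1040 on the Cbfb+/MYH11 arrays, against 94.6, 93.1, 503 and 485 on the WT arrays, so both lists were higher on arrays 3 and 4 in both groups. The part of these cells in the Cbfb values was not tested.

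The 3 genes whose values ran most like those of Cbfb over the 14 arrays were sought among 7421 genes with a value of at least 6 on at least 3 arrays. They were Ccdc8 (Pearson r = 0.876), Hnrnpm (0.860) and Srsf6 (0.857), of which Hnrnpm and Srsf6 encode proteins of RNA splicing. Hnrnpm had values of 8.35, 8.47, 8.07 and 8.20 in Cbfb+/MYH11, against 7.60, 7.56, 8.27 and 8.27 in WT blood, so its WT arrays split the same way as those of Cbfb. Arrays of 1 group are titled technical replicates and may share RNA in part or in whole, so these values are a description.

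**Figure D2:**
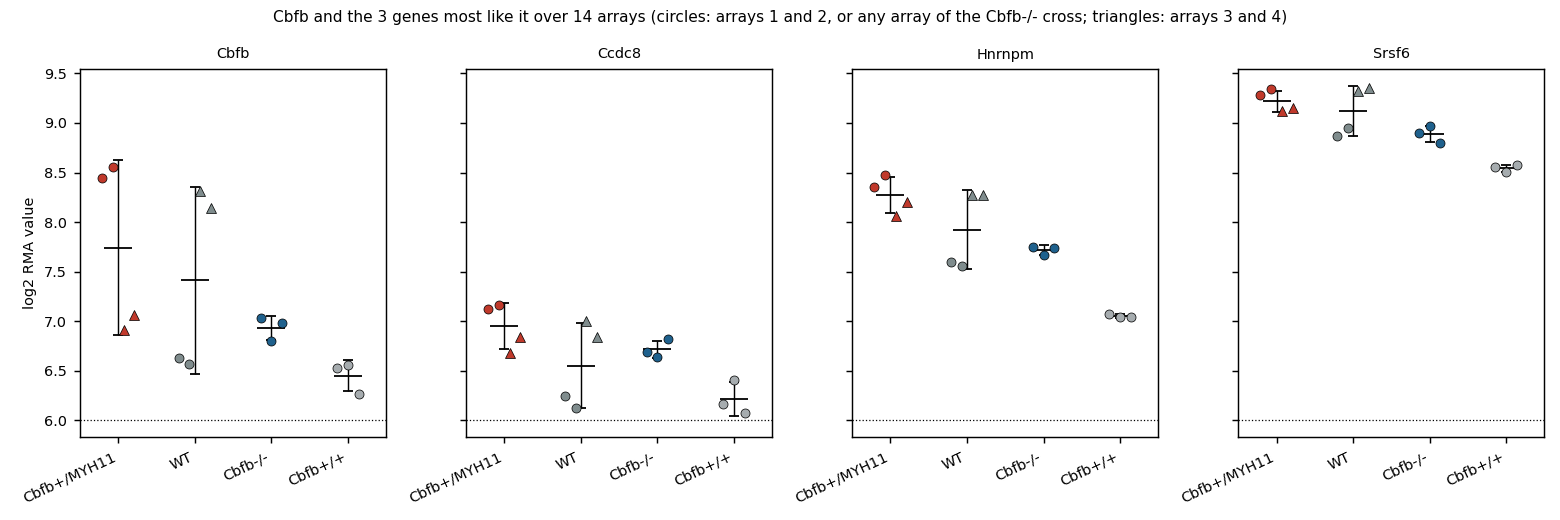
Log2 values by array (vertical axis) and group (horizontal axis) of Cbfb and of the 3 genes with the highest correlation with it over 14 arrays; bars give the mean and SD, circles mark arrays 1 and 2 of the first cross and all arrays of the second, and triangles mark arrays 3 and 4. The WT triangles lie above the WT circles in all 4 panels, and the span is widest for Cbfb (8.31 and 8.14 against 6.62 and 6.57).

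Runx1, the DNA-binding subunit needed for definitive blood, did not move as 1 gene. Its highest probe set (1452530_a_at) had values of 6.34, 6.44, 6.11 and 6.11 in Cbfb+/MYH11, against 6.77, 6.85, 6.17 and 6.14 in WT blood, and the next (1452531_at) had 6.11, 6.15, 5.82 and 5.80 in Cbfb+/MYH11, against 6.42, 6.58, 6.24 and 6.11 in WT blood. The groups overlapped at both sets, and the differences of -0.23 (limma adjusted p = 0.283) and -0.37 (limma adjusted p = 0.0405, under 1.5-fold) were not called. Another probe set (1427650_a_at), below 6 on 13 of 14 arrays, had 5.50, 5.50, 5.87 and 6.01 in Cbfb+/MYH11, against 5.01, 5.19, 4.89 and 4.85 in WT blood. Here all Cbfb+/MYH11 arrays lay above all WT arrays, and the set rose by 0.74, or 1.67-fold (1.37 to 2.02, limma adjusted p = 0.00078). Its correlation with the 2 other sets over the 14 arrays was -0.32 and -0.63.

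The same Runx1 probe set was called within arrays 3 and 4 (1.07) and not within arrays 1 and 2 (0.40, under 1.5-fold), and the difference between these was -0.67 (limma adjusted p = 0.0325). It had 5.58, 5.51 and 5.39 in Cbfb-/- blood, against 5.43, 5.43 and 5.68 in Cbfb+/+ blood, so the groups overlapped and the difference was -0.02. The effect of Cbfb+/MYH11 minus that of Cbfb-/- was 0.76 for this set (limma adjusted p = 0.0287). That call was lost with array pairs as a random block (adjusted p = 0.0638) and, at 0.66 to 0.77, without array 3 or 4 of Cbfb+/MYH11 or WT, array 2 or 3 of Cbfb-/-, or array 3 of Cbfb+/+ blood. The 2 higher sets were at 5.82, 5.91 and 5.83 and at 5.85, 5.88 and 5.89 in Cbfb-/- blood. The Cbfb+/+ values were 6.02, 6.17 and 6.32 and 6.32, 6.29 and 6.05, all above those of Cbfb-/- blood, with differences of -0.32 and -0.35 that were not called (limma adjusted p = 0.272 and 0.119). The other 3 Runx1 sets (1422864_at, 1440878_at and 1422865_at) stayed below 6 on every array and were not called in either mutant over all arrays. At 1440878_at the difference of Cbfb+/MYH11 from WT blood was called within arrays 3 and 4 (0.87, limma adjusted p = 0.0014) and was -0.02 within arrays 1 and 2. The difference between the mutants there, 0.86 (limma adjusted p = 0.0541), was called after quantile normalization (adjusted p = 0.0432) and with centred arrays (adjusted p = 0.0401).

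Genes most like the highest Runx1 set over the 14 arrays were Grap2 (r = 0.970), an adaptor of blood cell signalling, Rab8b (0.962), a GTPase of vesicle transport, and Foxh1 (0.962), a Smad-binding transcription factor. Grap2 had 8.12, 8.41, 7.65 and 7.74 in Cbfb+/MYH11, against 9.00, 9.14, 7.51 and 7.62 in WT blood, with WT arrays 1 and 2 highest as for Runx1. The WT arrays with the higher Runx1 values had the higher platelet, macrophage and liver sums given above, and the lower smooth muscle, mesenchyme and neural sums. Their lymphoid sums were also higher (291 and 254 against 191 and 196), with 4 of those 6 genes below 6 everywhere. In Cbfb+/MYH11 blood the arrays with the higher Runx1 values had the higher platelet sums but the lower macrophage and liver sums. The part of any of these cells in the Runx1 values was not tested. In RNA from whole blood, fewer cells of a type and less RNA per cell cannot be told apart.

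Runx3, the family member best known from T cells and neurons, had 6.38, 6.07, 6.32 and 6.33 in Cbfb+/MYH11, against 6.54, 6.70, 6.52 and 6.34 in WT blood at its higher set (1421467_at). It had 6.57, 6.52 and 6.92 in Cbfb-/- blood, against 6.84, 7.06 and 6.95 in Cbfb+/+ blood. Both pairs of groups overlapped, and the differences of -0.25 and -0.28 were not called (limma adjusted p = 0.133 and 0.189). The dim second set (1440275_at) was lower by 0.48 in Cbfb+/MYH11 blood with no overlap, under the 1.5-fold limit (limma adjusted p = 0.0117). It was called within arrays 3 and 4 (-0.67) but not within arrays 1 and 2 (-0.29).

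Mouse Myh11 encodes the smooth muscle myosin heavy chain, and the fusion allele carries the human counterpart of its tail. Its higher set (1418122_at) had 5.90, 6.13, 6.04 and 5.87 in Cbfb+/MYH11, against 6.14, 6.02, 5.93 and 6.03 in WT blood. It had 6.35, 6.73 and 6.51 in Cbfb-/-, against 6.69, 6.67 and 6.76 in Cbfb+/+ blood. Neither mutant differed by a called amount (-0.05 and -0.17), while Cbfb+/+ was above WT blood by 0.67 (limma adjusted p = 0.0019) with no overlap.

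The other Myh11 set (1448962_at) had 2.91, 3.21, 3.05 and 3.00 in Cbfb+/MYH11, against 2.96, 3.32, 4.08 and 4.63 in WT blood. Only WT arrays 3 and 4 stood above 4. The difference was -0.71 (limma adjusted p = 0.0633), and a fit with replicate numbers as blocks called it (adjusted p = 0.0333), while array pairs as a random block did not (adjusted p = 0.168). Within arrays 3 and 4 it was -1.33 and within arrays 1 and 2 -0.08, and the difference of these was 1.25 (limma adjusted p = 0.0106). WT arrays 3 and 4 were also those with the higher smooth muscle sums.

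In Cbfb-/- against Cbfb+/+ blood Runx1t1 was called at 4 of its 6 probe sets, all lower, more sets than any other member. At 1444615_x_at it had 6.28, 6.13 and 6.56 in Cbfb-/- blood, against 7.94, 7.89 and 7.84 in Cbfb+/+ blood. All Cbfb-/- arrays lay more than 1 unit below all Cbfb+/+ arrays, and Runx1t1 fell by 1.56, or 2.96-fold (2.41 to 3.62, limma adjusted p = 1.7e-05). In Cbfb+/MYH11 blood it had 8.15, 8.52, 8.45 and 8.46, against 8.38, 8.68, 8.43 and 8.63 in WT blood. These groups overlapped, and the difference was -0.13 (-0.38 to 0.12, limma adjusted p = 0.408).

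At 1448785_at Runx1t1 had 6.83, 6.43 and 6.78 in Cbfb-/-, against 7.88, 7.85 and 7.74 in Cbfb+/+ blood, a fall of 1.14 on the log2 scale (2.21-fold, limma adjusted p = 0.00029). At 1427640_a_at it fell by 0.86 (1.81-fold, limma adjusted p = 0.0014), and at 1437784_at by 0.88 (1.84-fold, limma adjusted p = 0.0096). The Cbfb-/- arrays lay below every Cbfb+/+ array at each of these sets. Correlations among the 4 called sets over the 14 arrays ran from 0.71 to 0.97. The suffix of 1444615_x_at marks probes that can also pair with other transcripts, which does not apply to 1448785_at and 1437784_at.

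The remaining Runx1t1 sets were 1443788_at, below 3 on every array, and 1440310_at, with -0.60 in Cbfb-/- blood (limma adjusted p = 0.331). At 1440310_at the Cbfb-/- values (4.99, 4.77 and 4.97) lay below the Cbfb+/+ values (5.48, 5.61 and 5.45). That p uses a spread shared with the first cross, where SDs were 0.80 and 0.63, against 0.12 and 0.084 in the second. With only the groups compared, the fall was called (limma adjusted p = 0.0036). The set 1440310_at followed the array pairs of the first cross, with 5.59, 5.34, 6.85 and 6.84 in Cbfb+/MYH11, against 5.28, 5.03, 6.34 and 6.11 in WT blood. Arrays 3 and 4 of both groups were also those with the higher neural and mesenchyme sums given above, and the part of those cells was not tested. The set was called within arrays 3 and 4 (0.62) but not over all arrays (0.46). Over all arrays none of the 6 sets was called between Cbfb+/MYH11 and WT blood in limma, and none had an unadjusted p under 0.05.

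The effect of Cbfb+/MYH11 minus that of Cbfb-/- was called for 3 Runx1t1 sets, at 1.43 (1444615_x_at, limma adjusted p = 0.00015), 1.18 (1448785_at, 0.0013) and 0.95 (1427640_a_at, 0.0045, and 0.0569 with array pairs as a random block). For 1437784_at (0.78) and 1440310_at (1.06) it was called with replicate numbers as blocks in both crosses (adjusted p = 0.0090 and 0.0021) and not with array pairs as a random block (adjusted p = 0.154 and 0.279). Numbers did not link the arrays of the second cross, and in the first cross the pairs rather than single numbers went together. Under quantile normalization the highest set was at -0.54 in Cbfb+/MYH11 blood (limma adjusted p = 0.003), under 1.5-fold, and the difference between the mutants was then 1.24.

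**Figure D3:**
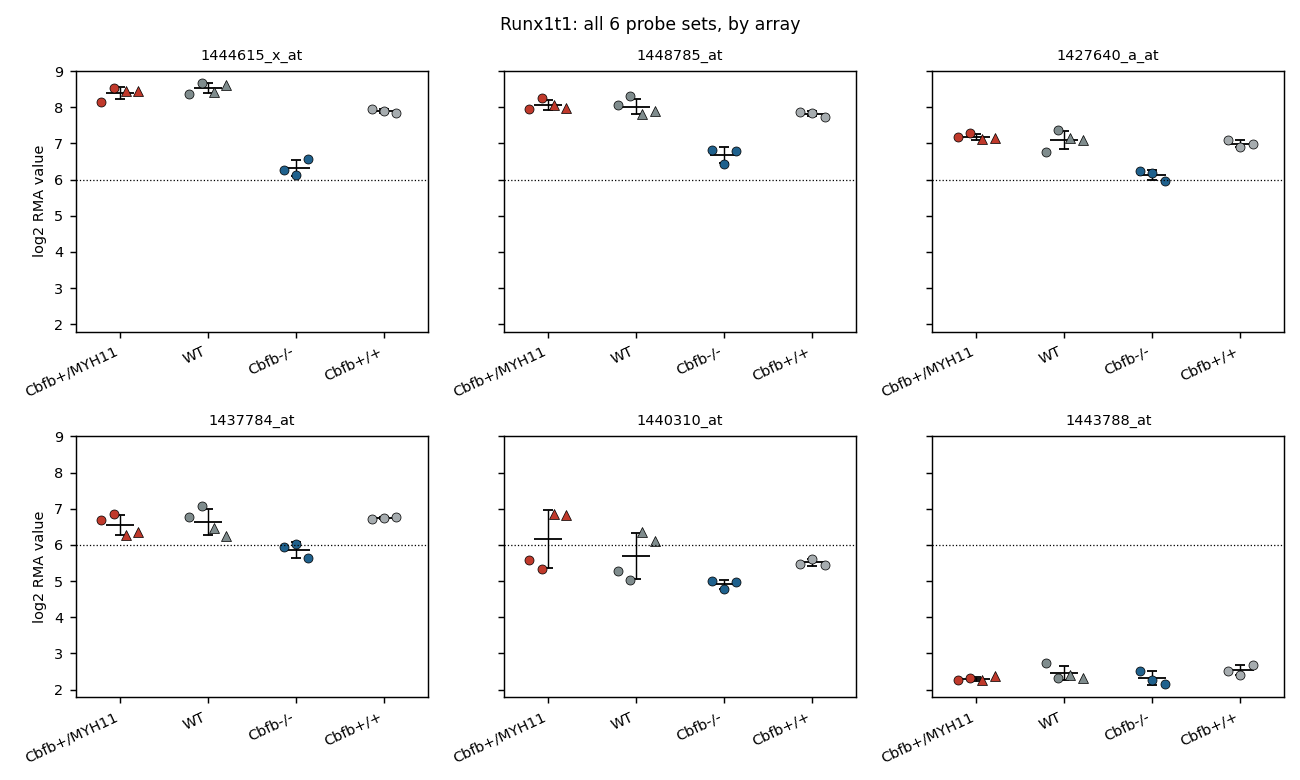
Log2 values of the 6 Runx1t1 probe sets by array (vertical axis) and group (horizontal axis); bars give the mean and SD, circles mark arrays 1 and 2 of the first cross and all arrays of the second, triangles mark arrays 3 and 4, and the dotted line is at 6. In the panels of the 4 called sets the Cbfb-/- arrays sit below every other array, while 1440310_at separates circles from triangles in the first cross.

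Platelet markers moved with Runx1t1 in the second cross. All 7 measured genes of that list fell in Cbfb-/- blood, and their summed signal was 885 to 914 in Cbfb-/-, against 3334 to 3466 in Cbfb+/+ blood. The macrophage sum was 329 to 360 in Cbfb-/-, against 1626 to 1689 in Cbfb+/+ blood, and 7 of 8 genes fell. In Cbfb+/MYH11 against WT blood 5 of 7 platelet genes (median difference -3.06) and 6 of 8 macrophage genes (-2.05) were called lower. Over all genes 4.12% were lower there, and no Runx1t1 set was called over all arrays. In the first cross the platelet sums of the WT pairs differed (4256 and 5063 on arrays 1 and 2, 1767 and 1729 on arrays 3 and 4). Beside these, Runx1t1 on WT arrays 3 and 4 minus WT arrays 1 and 2 was -0.33 at 1448785_at, -0.56 at 1437784_at and 0.05 at 1427640_a_at, and its 4 WT values at 1444615_x_at were 8.38, 8.68, 8.43 and 8.63. The neural list rose in Cbfb-/- blood in 4 of 5 genes, with sums of 1429 to 1468 in Cbfb-/-, against 159 to 178 in Cbfb+/+ blood, so it moved opposite to Runx1t1. Sums of the liver or visceral endoderm list (4208 to 4585 against 1707 to 1745) were also higher in Cbfb-/- blood. So were those of the mesenchyme list (1461 to 1497 against 870 to 895). By gene, 1 of 4 and 0 of 5 were called higher. The mast cell list, of 5 genes, summed to 994 to 1592 in Cbfb+/MYH11, against 93 to 129 in WT blood, and to 83 to 97 in Cbfb-/-, against 116 to 124 in Cbfb+/+ blood. The part of any of these cells in the Runx1t1 values was not tested.

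Cbfa2t3, the corepressor of the Tal1 and Gata1 complex in red cell and platelet precursors, was called in opposite directions in the mutants at its highest set (1438705_at). It had 7.50, 7.48, 7.91 and 7.83 in Cbfb+/MYH11, against 7.10, 7.21, 7.01 and 6.92 in WT blood. It had 6.19, 6.22 and 6.70 in Cbfb-/-, against 7.23, 7.21 and 7.09 in Cbfb+/+ blood. The groups of neither cross overlapped. Cbfa2t3 rose by 0.62 in Cbfb+/MYH11 blood (1.53-fold, 1.25 to 1.87, limma adjusted p = 0.0039) and fell by 0.80 in Cbfb-/- blood (1.75-fold, 1.38 to 2.20, limma adjusted p = 0.0043). The effect of Cbfb+/MYH11 minus that of Cbfb-/- was 1.42 (0.98 to 1.86, limma adjusted p = 0.00052).

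Within arrays 3 and 4 the Cbfa2t3 rise was 0.90, and within arrays 1 and 2 the difference was 0.33 and not called, but the difference between the pairs was not called either (-0.57, limma adjusted p = 0.152). It was not called without Cbfb+/MYH11 array 3 (0.54), Cbfb+/MYH11 array 4 (0.57) or WT array 4 (0.57), or after quantile normalization (0.23, limma adjusted p = 0.295). The fall and the difference between the mutants were called after quantile normalization, at -1.01 and 1.24. The set 1418582_at was at -0.56 in Cbfb-/- blood (limma adjusted p = 0.0433, under 1.5-fold) and 0.19 in Cbfb+/MYH11 blood, and its difference between the mutants, 0.75, was called with the replicate block (adjusted p = 0.0363) and not with array pairs as a random block (adjusted p = 0.132). The sets 1440964_s_at and 1440963_at were not called in either mutant. With the mean of its probe sets Cbfa2t3 was called in neither mutant, at 0.09 in Cbfb+/MYH11 (limma adjusted p = 0.415) and -0.39 in Cbfb-/- blood (limma adjusted p = 0.0153, under 1.5-fold). Its difference between the mutants was then 0.48 (limma adjusted p = 0.0269), also under 1.5-fold. Mast cell sums in Cbfb+/MYH11 and platelet sums in Cbfb-/- blood moved in the same directions as Cbfa2t3. The platelet list went the other way from Cbfa2t3 in Cbfb+/MYH11 blood, with a median difference of -3.06. There 5 of its 7 measured genes were called lower and 0 higher. The part of these cells in the Cbfa2t3 values was not tested.

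Cbfa2t2, the widely expressed member of the same family, was not called in either mutant at any of its 3 sets. At its highest set (1434757_at) it had 6.24, 6.18 and 6.28 in Cbfb-/-, against 5.72, 5.81 and 5.86 in Cbfb+/+ blood. These groups did not overlap, but the difference of 0.44 was under 1.5-fold (limma adjusted p = 0.0612). In Cbfb+/MYH11 blood the difference from WT was 0.04. Its set 1456416_at went the other way, at -0.50 in Cbfb-/- blood (limma adjusted p = 0.0752).

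Of the Groucho corepressors, Tle1 was called at its lower set (1422751_at), and not at the higher one (1434033_at, 0.05 in Cbfb+/MYH11 and 0.27 in Cbfb-/- blood). The called set had 6.02, 5.44 and 5.55 in Cbfb-/-, against 4.80, 4.63 and 4.81 in Cbfb+/+ blood, with no overlap, and rose by 0.92 (limma adjusted p = 0.0244). It had 4.81, 5.20, 4.91 and 5.45 in Cbfb+/MYH11, against 4.30, 3.82, 4.96 and 4.73 in WT blood, where the groups overlapped, and rose by 0.64 (limma adjusted p = 0.0421). The rise in Cbfb-/- blood lost its call without 1 array in 5 of 14 cases (Cbfb-/- arrays 1 and 3 and each Cbfb+/+ array), with values from 0.75 to 0.98. The rise in Cbfb+/MYH11 blood lost it in 9 of 14 (Cbfb+/MYH11 arrays 2, 3 and 4, WT arrays 1 and 2, Cbfb-/- array 3 and each Cbfb+/+ array), with values from 0.43 to 0.70, and also with array pairs as a random block (adjusted p = 0.186). The set was below 6 on 13 of 14 arrays. The neural sums rose beside it in Cbfb-/- blood (1429 to 1468, against 159 to 178 in Cbfb+/+ blood), and their part was not tested.

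Tle3 was called at its lowest set (1419654_at), which had 4.46, 4.43 and 4.14 in Cbfb-/-, against 3.73, 3.87 and 3.67 in Cbfb+/+ blood. The groups did not overlap, and the set rose by 0.59 (limma adjusted p = 0.0063), just past 1.5-fold. The difference between the mutants was -0.74 (limma adjusted p = 0.0106). The call in Cbfb-/- blood was lost without Cbfb-/- array 1 or 2 or Cbfb+/+ array 1 or 3, at 0.53 to 0.58, and that of the difference with array pairs as a random block (adjusted p = 0.0638). The higher set (1419655_at) had 6.74, 6.47 and 6.33 in Cbfb-/-, against 6.29, 6.25 and 6.32 in Cbfb+/+ blood, and was not called (0.22).

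Over all 30 probe sets, 3 were called in Cbfb+/MYH11 against WT blood, all higher, where 13.5% of all probe sets were called, 10.5% higher and 2.94% lower. In Cbfb-/- against Cbfb+/+ blood 7 were called, 2 higher and 5 lower, where 9.69% of all were called, 6.66% higher and 3.03% lower, and 4 of the 5 lower sets belong to Runx1t1. For the difference between the mutants 6 were called, against 7.52% of all, with 10 under the replicate block and 3 with array pairs as a random block. Cbfb+/+ differed from WT blood at 3 of the 30, against 4.57% of all: Myh11 1418122_at, Runx1 1440878_at (0.66) and Runx1t1 1444615_x_at (-0.64). With array pairs as a random block Myh11 alone was called of these. This contrast shares its arrays with the others. Within arrays 1 and 2, 2 sets were called, where 20.1% of all were, and within arrays 3 and 4, 7 were called, where 13.3% of all were. The pairs differed at 4 sets, against 6.58% of all. Mutant and littermate arrays did not overlap at 21 of the 30 sets in the second cross and at 4 in the first. The share of all probe sets without overlap was not counted, so a lack of overlap does not by itself set these genes apart.

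By the highest set of each of the 9 genes, 1 was called in Cbfb+/MYH11 blood (Cbfa2t3), against 18.4% of 18193 genes, and 2 in Cbfb-/- blood (Runx1t1 and Cbfa2t3), against 12.8%. For the difference between the mutants the same 2 genes were called, against 10.0%, and between the wild types Myh11 and Runx1t1 were called, against 5.54%. The median change of the 30 sets was -0.07 in Cbfb+/MYH11 and -0.28 in Cbfb-/- blood, beside medians over all probe sets of -0.11 and -0.07. With the arrays of each pair averaged, so that the first cross had 1 value per pair, 0 of the 30 sets and 58 of all were called for Cbfb+/MYH11, with 3 of the 30 at an unadjusted p under 0.05 in limma. Centring the arrays on their medians moved the median change in Cbfb+/MYH11 blood to 0.00, and relative to the median as deposited the 3 calls there were at 0.85 for Runx1, 0.73 for Cbfa2t3 and 0.75 for Tle1. The balance of calls also moved with the scaling. Higher calls made up 78.2% in Cbfb+/MYH11 blood (61.4% after quantile normalization, 89.0% with arrays centred on their medians) and 68.7% in Cbfb-/- blood (55.3% and 75.0%).

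**Figure D4:**
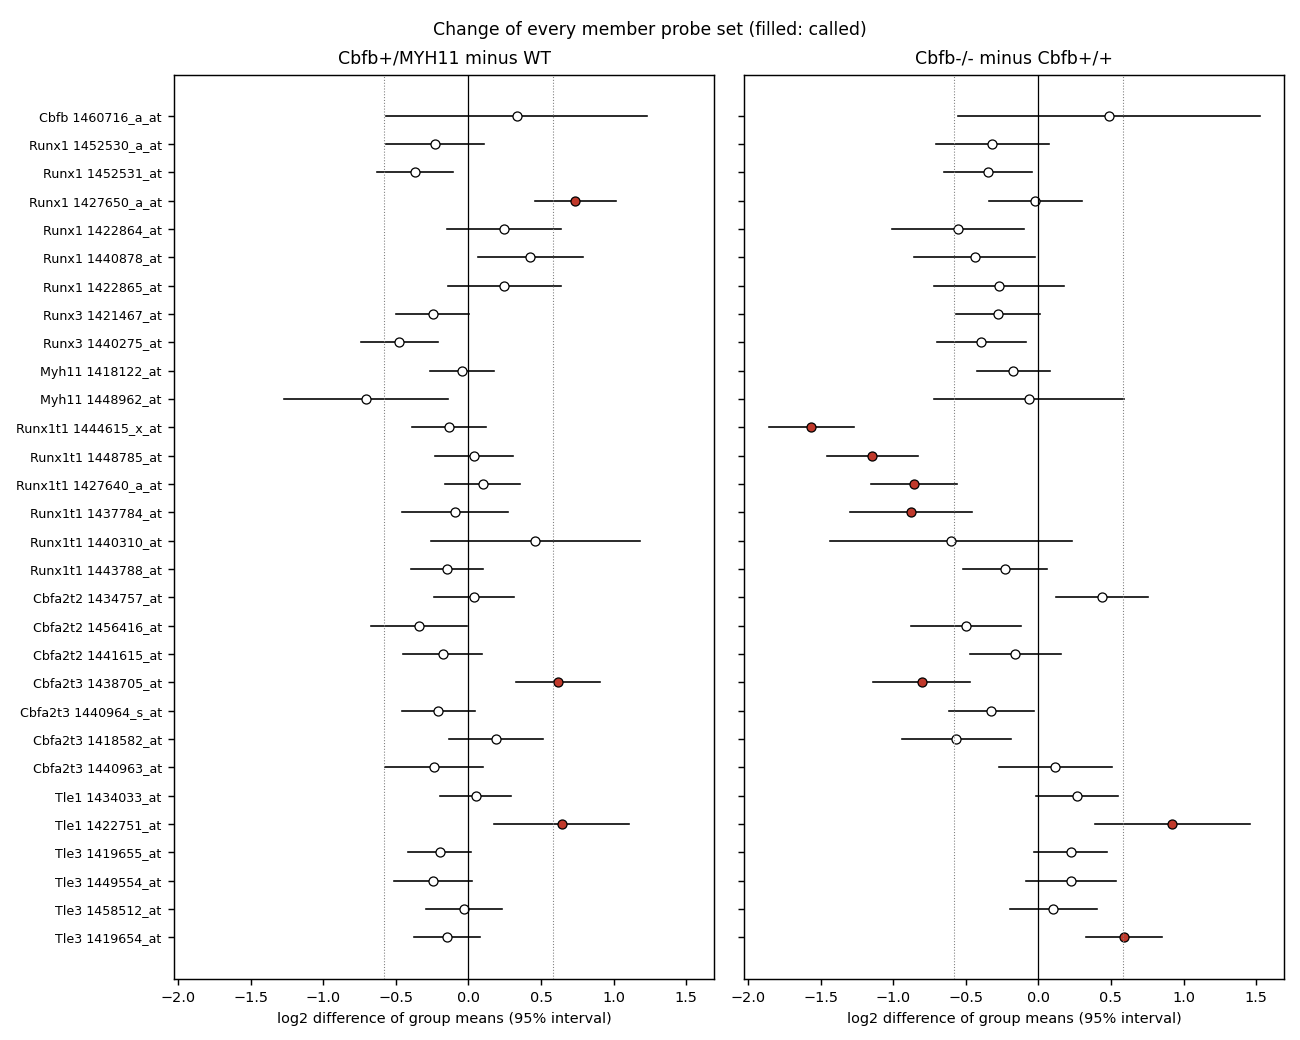
Log2 difference of group means (horizontal axis) of all 30 probe sets, for Cbfb+/MYH11 minus WT (left) and Cbfb-/- minus Cbfb+/+ (right); lines give 95% intervals, filled points were called, and dotted lines mark 1.5-fold. Of the points, 3 are filled on the left, all to the right of 0, and 7 on the right, of which 5 lie to the left of 0.

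The partners and cofactors of Runx proteins were described from a list of 31 genes, of which 27 were measured by their highest probe set. In Cbfb+/MYH11 blood 6 rose and 1 fell (Cdk6, by 0.78), with a median of 0.11 against -0.11 over all genes, where 14.3% of all genes were higher and 4.12% lower. In Cbfb-/- blood 6 rose and 5 fell, with a median of 0.12 against -0.05, where 9.09% of all genes were higher and 3.70% lower. Gata2, a factor of stem and mast cells, averaged 10.01 ± 0.097 in Cbfb+/MYH11 and 6.49 ± 0.35 in WT blood (SD, n = 4 each), a rise of 3.51 (limma adjusted p = 4.9e-08). It averaged 5.77 ± 0.61 in Cbfb-/- blood, against 6.55 ± 0.095 in Cbfb+/+ blood (SD, n = 3 each), a fall of 0.78 (limma adjusted p = 0.0462).

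Lmo2, which bridges Tal1 and Gata factors, averaged 10.44 ± 0.023 in Cbfb+/MYH11 and 8.81 ± 0.20 in WT blood and rose by 1.63 (limma adjusted p = 1.1e-07). It averaged 7.87 ± 0.17 in Cbfb-/- and 8.58 ± 0.046 in Cbfb+/+ blood and fell by 0.71 (limma adjusted p = 0.0024). Both genes differed between the mutants, by 4.30 for Gata2 and 2.34 for Lmo2 (limma adjusted p = 1.5e-06 and 7.4e-07). Gata2 and Lmo2 thus went in the same directions as Cbfa2t3 in each cross. The mast cell sums, 994 to 1592 in Cbfb+/MYH11 against 93 to 129 in WT blood, moved beside them, and their part was not tested.

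Gata1, the red cell and mast cell factor, rose by 0.77 in Cbfb+/MYH11 blood (limma adjusted p = 6.8e-05), and Ldb1, which holds the Lmo2 complex together, was at 0.52 (limma adjusted p = 0.0013), under 1.5-fold. In Cbfb-/- blood Lyl1, a relative of Tal1, fell by 0.84 (limma adjusted p = 0.0021), while Tle5, a short Groucho relative, rose by 1.11 (limma adjusted p = 0.00042) and Hdac2, a histone deacetylase, rose by 1.38 (limma adjusted p = 0.0085).

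A list of reported Runx1 targets held 23 genes, of which 20 were measured. In Cbfb-/- blood 11 fell and 0 rose in limma (1 higher at an unadjusted p under 0.05), with a median of -0.72 against -0.05 over all genes, where 3.70% of all genes were lower and 9.09% higher. In Cbfb+/MYH11 blood 6 fell and 2 rose, with a median of -0.15 against -0.11, where 4.12% of all were lower and 14.3% higher. The median was -0.43 within arrays 1 and 2 (8 lower, 3 higher) and -0.09 within arrays 3 and 4 (6 lower, 4 higher). The difference between the pairs was called at 9 genes as lower and at 1 as higher, where 6.58% of all probe sets were called. Of the 20 genes, 6 stayed below 6 on every array (Anpep, Cd4, Csf2, Gfi1, Gzmb and Il3). Mpo, the granule enzyme myeloperoxidase, fell in both mutants, by 2.08 in Cbfb+/MYH11 and by 2.15 in Cbfb-/- blood (limma adjusted p = 2.1e-08 and 5.1e-07). Cebpa, a myeloid factor, averaged 8.41 ± 0.40 in Cbfb+/MYH11 and 5.77 ± 0.35 in WT blood (SD, n = 4 each) and rose by 2.64.

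Pf4, a platelet chemokine, fell by 3.44 in Cbfb+/MYH11 blood, and Myl9, a myosin light chain of platelets and smooth muscle, fell by 2.10 there and by 1.12 in Cbfb-/- blood. Tubb1, the platelet tubulin, averaged 6.65 ± 0.074 in Cbfb-/- and 9.27 ± 0.0091 in Cbfb+/+ blood (SD, n = 3 each) and fell by 2.62 (limma adjusted p = 2.3e-05). Itga2b, the platelet integrin, fell by 1.66 in Cbfb-/- blood (limma adjusted p = 0.0011). Pf4, Itga2b and Tubb1 also stand on the platelet marker list and Myl9 on the smooth muscle list. Csf1r of the target list stands on the macrophage list and Cd4 on the lymphoid list. These counts therefore overlap with the marker sums given above.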

How the data were processed

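Blood was collected from dissected embryos and its total RNA was biotin-labelled for Affymetrix expression arrays, per the labels. Before the values were deposited, the authors summarised probes to log2 values with RMA, run in Affymetrix Expression Console per the submitters' processing notes, and the versions are not given in the sources used here. The values were used as deposited. Of 45101 probe sets, 64 array controls were left out. GEO's platform annotation names 34945 of the others with 1 gene symbol, 932 with several and 9160 with none, and only sets with 1 symbol were named. RMA fits each probe set over the arrays that are run together and does not remove differences between array pairs.

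A model with 4 group means and no covariate was fitted to the 14 arrays by limma 3.58.1 (lmFit, contrasts.fit, eBayes) under R 4.3.3, with 10 residual and 4.65 prior degrees of freedom and Benjamini-Hochberg adjustment over all 45037 probe sets. No filter was used, so that dim members were tested with the rest. A model of 6 groups split the first cross into arrays 1 and 2 and arrays 3 and 4. A gene was represented by the probe set with the highest mean. Marker sums add linear signals (2 raised to the log2 value) over the genes of a list. The fit recovered known changes in simulated data. Errors of the simulated arrays were independent, so the simulation did not test the fit where arrays of a pair are alike.

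Same-numbered arrays of the first cross deviated together (correlations 0.507, 0.366, 0.511 and 0.508), but arrays of the same pair with different numbers did so as closely (0.413 and 0.414 for arrays 1 and 2, 0.476 and 0.528 for arrays 3 and 4). The numbers therefore mark the pairs and not single partners. Arrays 1 and 2 deviated opposite to arrays 3 and 4 (down to -0.528). In the second cross the correlations were -0.0028, 0.0080 and 0.016.

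All probe sets of the members are named. Of the partner and target lists, up to 4 genes with the smallest adjusted p in each effect are named, and others where a count was 1 were chosen after their values were seen. For Cbfb and Runx1 the 3 most correlated genes are named. Members and lists were chosen with earlier results of these data known, and the comparison between array pairs was added after seeing the data. The alternatives tried were another scaling, a filter, a trended prior, only the groups compared, the replicate number as a block, array pairs as a random block or averaged, no fold limit, the mean of a gene's probe sets, and leaving out each array. No genome was used. Runx1t1 and Myh11 had no entry in the table of start sites used.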

Additional observations from a re-analysis of the deposited data

Results flagged for a closer look

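Results that differed between the mutants, by the test of the difference between their effects (Cbfb+/MYH11 minus WT, less Cbfb-/- minus Cbfb+/+), were as follows. Runx1t1 gave 1.43 at 1444615_x_at, 1.18 at 1448785_at and 0.95 at 1427640_a_at. Cbfa2t3 gave 1.42 at 1438705_at and Runx1 gave 0.76 at 1427650_a_at, while Tle3 gave -0.74 at 1419654_at.

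The difference of Cbfb+/MYH11 from WT blood differed between the array pairs of the first cross at 4 probe sets, taken as the value within arrays 1 and 2 minus that within arrays 3 and 4. Cbfb gave 3.14 and Myh11 1.25 at 1448962_at. Runx1 gave -0.67 at 1427650_a_at and -0.89 at 1440878_at.

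Among groups of 4 arrays, 1 array stood far from the others in 3 cases, a pattern that chance gives in about 1 of 20 groups. With 30 probe sets in each of the Cbfb+/MYH11 and WT groups, a few such cases come by chance alone. Runx3 was at 3.01 on Cbfb+/MYH11 array 4 (1440275_at), Tle1 at 6.19 on WT array 4 (1434033_at) and Tle3 at 4.37 on WT array 2 (1458512_at).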

How the results depend on the processing

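Counts of member probe sets and genes called in Cbfb-/- against Cbfb+/+ blood stayed within 1.5 times the count reported under every whole-table alternative run. None of these treated the arrays of a second-cross group as 1 pool. Averaging was run for the first cross only, and the random block kept each array of the second cross separate. Whether the Cbfb-/- calls hold between pools was therefore not tested. The genes behind a count could change. With the mean of a gene's probe sets the called genes were Runx1t1 and Tle1, and Cbfa2t3 was not called (-0.39, under 1.5-fold). For Cbfb+/MYH11 against WT the 3 member sets became 1 with the filter at 6, 0 with arrays averaged by pair, 7 within arrays 3 and 4, and 5 without a fold limit. The 1 gene became 0 after quantile normalization, 0 with averaged arrays, 0 with the mean of a gene's probe sets and 2 within arrays 3 and 4. The 6071 sets in all became 58 with averaged arrays, which leaves fewer values, and 11422 without a fold limit. For the difference between the mutants the replicate block gave 10 member sets and 5085 in all, array pairs as a random block gave 3 and 2127, and the mean of a gene's probe sets gave 1 gene. For Cbfb+/+ against WT the random block gave 1 member set and 1 gene, no fold limit gave 6 and 3949 in all, the mean of probe sets gave 0 genes, and only the groups compared gave 1282. Cbfb in Cbfb+/MYH11 against WT turned to -1.24 within arrays 3 and 4. Partners that rose in Cbfb+/MYH11 blood numbered 2 after quantile normalization, 10 with centred arrays, 11 within arrays 1 and 2 and 3 within arrays 3 and 4, and those that fell numbered 2, 0 and 0 under the first 3 of these. Reported targets that rose numbered 4 within arrays 3 and 4. Apart from the effect of averaging, the cause of these shifts was not tested.

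Leaving out 1 array at a time gave 1 to 3 member sets, 0 to 1 genes and 5017 to 7455 sets in all for Cbfb+/MYH11, 5 to 7, 2 to 2 and 2879 to 5015 for Cbfb-/-, 5 to 9, 2 to 2 and 2556 to 3725 for the difference, and 2 to 4, 2 to 2 and 1527 to 2753 for Cbfb+/+ against WT. In the second cross the shared numbers were not taken as pairs. The replicate block there also called Runx1t1 1440310_at (-0.60, limma adjusted p = 0.0067), as did the fit of only the groups compared (limma adjusted p = 0.0036). Array pairs as a random block did not call it (adjusted p = 0.239). Replicate numbers as blocks could not be fitted for Cbfb+/+ against WT, which come from different crosses, so only the random block was run there. Without Cbfb+/MYH11 array 3, Cbfb+/MYH11 array 4 or WT array 4 the Cbfa2t3 rise was lost, which gave the 0 genes, and the first 2 of these gave 1 member set. The 2879 sets were those without Cbfb-/- array 1. Dim probe sets, 12 of the 30 below 6 on every array, limit what these arrays can show.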
